A study of Rattus norvegicus with 8 samples.

Results

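RNA was sequenced from the axonal compartment of rat sensory neurons with or without a hairpin against the RNA-binding protein Pum2. This comparison rests on 4 of the 8 libraries of the study: 2 whose neurons received a hairpin RNA directed at Pum2 (shPum2) and 2 whose neurons received a control hairpin (shControl), chosen by their labels. The other 4 libraries hold somatic RNA, 2 per hairpin, and are used here only as a reference level. All neurons came from dorsal root ganglia of rat embryos of day 15. They were kept for 7 days in microfluidic chambers, where axons grow through grooves into a compartment that cell bodies do not enter. Lentivirus with either hairpin was added on the day of plating, so the control neurons also carried a virus and a hairpin, and all knockdown libraries share the label shPum2. Axonal libraries were made with an ultra-low input kit. The labels do not say whether replicates came from separate dissections or chambers, so each p-value measures only the spread between these libraries. The labels describe no step that removed non-neuronal cells.

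Pum2 belongs to the Pumilio family, which recognises a short element in the 3′ untranslated region of target mRNAs. It recruits deadenylases and slows translation of the mRNAs it holds. In neurons Pumilio proteins are known from RNA granules and from the control of which mRNAs leave the cell body, and sensory axons use local translation for growth, for survival signals and for their mitochondria. The question of the comparison is which axonal RNAs differ in level when Pum2 is reduced. In bulk axonal RNA, fewer axons, other cells in the compartment and less RNA per axon cannot be told apart.

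The axonal libraries held 11686689 and 13533408 estimated counts under shControl and 11641980 and 16131627 under shPum2. Of 17379 genes, 10166 and 10120 had at least 1 count under shControl, and 10730 and 9542 under shPum2. The 10 most abundant genes took 24.3% to 30.4% of a library. Axonal levels below are CPM, counts scaled by the TMM library size to a common total. Somatic levels are CPM scaled by total counts, so axonal and somatic values are not on quite the same scale. The scaling factors were 0.944 and 0.977 for shControl and 1.25 and 0.867 for shPum2, so the shPum2 libraries sat at the opposite ends.

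Pum2 itself was too rare in axonal RNA to check the knockdown there. It was at 3.46 and 0.456 CPM under shControl, against 1.18 and 8.17 CPM under shPum2, from 38, 6, 17 and 114 counts. The shPum2 libraries held both the highest value and the value next to the lowest, and the groups overlapped. The log2 difference was 1.25 with an SE of 2.37, and its 95% interval ran from -4.17 to 6.68. Without replicate 2 of shPum2 the log2 difference was -0.75. In somatic RNA of the same hairpins Pum2 averaged 162 CPM with shControl and 37.3 CPM with shPum2. The labels of the axonal libraries therefore have no check of their own in the targeted gene.

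Markers of sensory neurons summed to 25134 and 19877 CPM under shControl and 28624 and 29643 CPM under shPum2, and 28 of 31 were detected in at least 1 axonal library. The neurofilament Nefm gave 53.3% to 69.2% of that sum, and Runx3, Sst and Mrgprd, which mark particular sensory subtypes, were at 0 in all 4. Markers of other cells were also counted, at levels that differed between replicates. Macrophage and blood cell markers summed to 3946 and 3545 CPM under shControl and 5181 and 459.7 CPM under shPum2, against 94.5 to 396 CPM in somatic libraries. Markers of Schwann and satellite glia summed to 5200.0 and 419 CPM under shControl and 3008 and 177 CPM under shPum2, with Apoe giving 92.2% and 87.4% of the 2 highest sums. The defining glial genes Mag, Gfap, Cdh19, Kcnj10 and Ncmap were at 0 in all 4 libraries. Fibroblast and matrix genes summed to 748 and 631 CPM under shControl and 907 and 324 CPM under shPum2, and cell cycle genes to 133 and 233 CPM under shControl and 106 and 84.2 CPM under shPum2. Endothelial markers stayed between 22.3 and 88.0 CPM, with Cdh5, Kdr and Erg at 0. Replicate 2 of shPum2 was the lowest library for the macrophage, glial, fibroblast and cell cycle lists, and the part of these cells in any difference between hairpins was not tested.

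**Figure D1:**
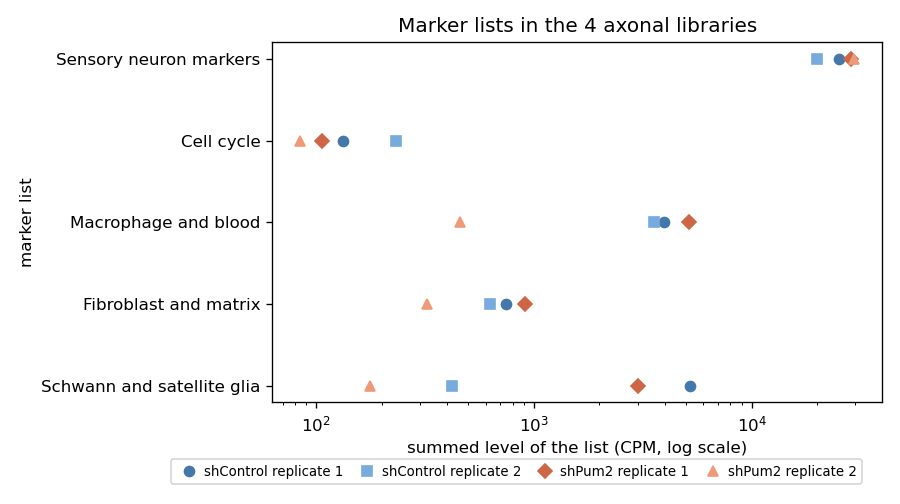
Summed level of 5 marker lists in each of the 4 axonal libraries, in CPM on a log axis, with a symbol per library. Sensory neuron markers lie close together between 19877 and 29643 CPM, whereas glial markers spread from 177 to 5200.0 CPM and macrophage markers from 459.7 to 5181 CPM.

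Axonal replicates differed in which genes they detected. All 4 libraries detected 7964 genes (45.8%) with at least 1 count, and 5298 genes (30.5%) were at 0 in all of them. At a minimum of 10 counts, 4668 genes (26.9%) passed in all 4. Of the 8043 genes with at least 10 counts in replicate 1 of shControl, 71.2% reached 10 counts in replicate 2 and 8.94% were at 0 there. Of the 8891 such genes in replicate 1 of shPum2, 68.1% reached 10 counts in replicate 2 and 12.1% were at 0. In the other direction, from replicate 2 to replicate 1, the shares were 83.5% with shControl and 89.7% with shPum2. Some well-counted RNAs of an axonal library were thus not detected in a library of the same hairpin. With at least 10 counts in a library and 0 in the other 3 there were 183 and 67 genes in the shControl libraries and 211 and 74 in the shPum2 libraries, and such a gene reached up to 741 counts.

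Dropout followed the level of the RNA in somatic libraries. Among the 1039 genes above 200 CPM in somatic RNA, none was at 0 in an axonal library, and 93.0% had at least 10 counts in all 4. Between 50 and 200 somatic CPM, 59.0% of 3206 genes reached 10 counts in all 4. Between 10 and 50 somatic CPM, 14.5% and 11.4% of 4326 genes were at 0 with shControl and 6.15% and 19% with shPum2. There 31.2% reached 10 counts in all 4. Within this middle range the share also differed with transcript length. Of genes with transcripts up to 1000 bases long, 73.7% had at least 10 counts in all 4 axonal libraries, against 20.6% of genes between 2000 and 4000 bases. Somatic RNA came from a standard kit, so in this pattern the kit and the compartment cannot be told apart.

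**Figure D2:**
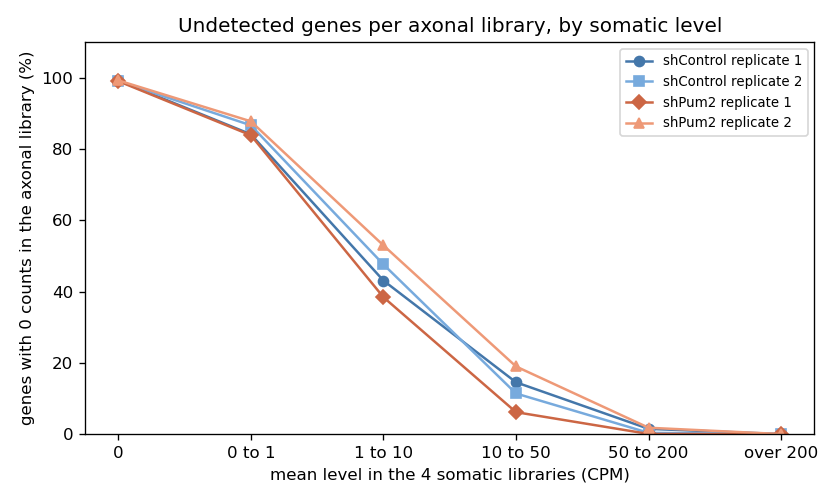
Percent of genes at 0 counts in each axonal library (y axis) against the mean level of the gene in the 4 somatic libraries in CPM (x axis, 6 classes), with a line per axonal library. The share falls from about 99% for genes at 0 in somatic RNA to 0% above 200 CPM, and at 10 to 50 CPM it lies between 6.15% and 19%.

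Among detected RNAs the median difference between single replicates was larger than that between the hairpin means. For genes with a mean of 10 to 50 axonal CPM, the median absolute log2 difference was 2.01 between the shControl replicates and 1.47 between the shPum2 replicates, and 1.19 between the hairpin means. For genes of 200 to 1000 CPM the medians were 0.43, 0.98 and 0.22. Above 1000 CPM they were 0.30, 1.02 and 0.19. In these CPM the abundant RNAs thus lay closer together in the shControl libraries than in the shPum2 libraries, whose scaling factors were 1.25 and 0.867. In TPM the order was not the same for all abundant RNAs. Tmsb4x was at 43922 and 34044 TPM with shControl and at 39518 and 42981 TPM with shPum2, closer with shPum2. Rpl38 was at 11816 and 10666 TPM with shControl and at 9243 and 12361 TPM with shPum2, closer with shControl. A mean of replicates varies less than a single library, so the between-hairpin value would be smaller even with no difference between hairpins.

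**Figure D3:**
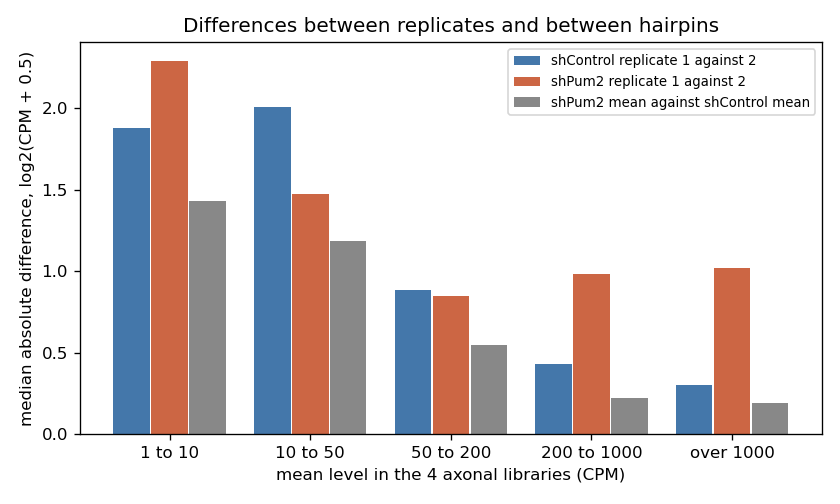
Median absolute difference in log2(CPM + 0.5) (y axis) by mean axonal level in CPM (x axis, 5 classes), for shControl replicates, shPum2 replicates and the hairpin means. In all 5 classes the bar between hairpin means is the shortest, and above 200 CPM the shPum2 replicates have the tallest bar.

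No gene passed the test of shPum2 against shControl. Of 8517 genes tested, 0 (0%) had an adjusted p below 0.05 (edgeR quasi-likelihood, Benjamini-Hochberg), and the smallest adjusted p was 0.9998. Before adjustment, p was below 0.05 for 145 genes with higher values in shPum2 (1.7%) and 112 with lower values (1.32%), or 257 in all, where an even spread of p would give 426. DESeq2 called 336 genes on the same libraries, and 159 on the genes that edgeR tested. Without replicate 1 of shControl edgeR called 22 genes, and without replicate 1 of shPum2 it called 31. Without replicate 2 of shControl or of shPum2 it called 0. Of the genes named in the text, Tec, Gtf2b and Il2rg were among the 22 calls and Akr1b1, Apoe and Lyz2 among the 31. For 71 of 112 of the genes named, leaving out some library moved the fold by over 1.5 times. An exact permutation test of 2 against 2 libraries, counting both directions, cannot go below p = 0.333, so it was of no use for single genes.

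The width of the intervals shows what these libraries could and could not resolve. The SE of a log2 difference had a median of 2.07 and ran from 0.55 to 3.85. The 95% interval lay within a 4-fold difference in both directions for 646 genes (7.58%) and within an 8-fold difference for 1484 (17.4%), and within a 2-fold difference for 0. The narrowest intervals belonged to abundant RNAs whose 4 values were close. Ap2m1, a subunit of the clathrin adaptor AP-2, was at 639 and 629 CPM in shControl replicates 1 and 2 and 673 and 653 CPM in those of shPum2. Its log2 difference of 0.06 had an interval from -1.20 to 1.33, which still allows a change of more than 2-fold in either direction. The beta tubulin Tubb5 was at 872 and 1049 CPM in the shControl libraries and 925 and 1091 CPM in the shPum2 libraries, and the mitochondrial channel Vdac3 was at 339.9 and 357 CPM under shControl, against 335 and 366 CPM under shPum2. For these RNAs the hairpins overlapped or differed by less than the replicates of most genes. Among them only Ap2m1 had both shPum2 values just above both shControl values, and its groups overlapped with scaling by total counts.

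Groups that do not overlap were common at this replication. Among the tested genes 1142 (13.4%) had both shPum2 libraries above both shControl libraries and 1164 (13.7%) had both below. The median log2 difference of all tested genes was -0.05 and 48.3% were positive. With scaling by total counts in place of TMM, the median of all genes moved by 0.14 to 0.09, so directions of small differences depend on the scaling. Leaving out a library moved it as well, by 0.36 and 0.19 without shControl replicate 1 or 2 and by -0.51 and -0.12 without shPum2 replicate 1 or 2. Counts of list members below are read against these shares.

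The most abundant axonal RNAs were actin-binding thymosins, ferritins and ribosomal proteins, by the mean TPM, which is per transcript length. The thymosins Tmsb10 and Tmsb4x, which hold actin monomers, averaged 59478 and 56066 TPM and 38983 and 41249 TPM with shControl and shPum2. The ferritin light chain Ftl1 averaged 59984 and 55189 TPM and the heavy chain Fth1, which oxidises iron for storage, 43062 and 37074 TPM. Tmsb10 was at 33078 and 23947 CPM in shControl replicates 1 and 2 and 16433 and 34117 CPM in those of shPum2, and Ftl1 was at 78119.7 and 56966 CPM in the shControl libraries and 46739 and 67489 CPM in the shPum2 libraries. Replicate 1 of shPum2 was the lowest library for Tmsb10 in these CPM, by total counts and in TPM. For Ftl1 it was the lowest in these CPM only, with replicate 2 of shControl lowest by total counts and replicate 2 of shPum2 in TPM. The log2 differences of these 4 genes lay between -0.33 for Fth1 and -0.00379 for Tmsb4x, with SEs of 0.74 to 0.79, and that of Tmsb4x was above 0 with other scalings.

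Of the 10 most abundant RNAs, Bc1 was the one whose groups did not overlap, joined by Fth1 when scaled by total counts. Bc1 is a short non-coding RNA of neurons that is carried into processes and represses translation. It was at 2119 and 1483 CPM under shControl, against 517 and 1186 CPM under shPum2, with a log2 difference of -1.08 (SE 0.64, interval -2.54 to 0.38), and of -0.58 and -1.83 without replicate 1 or 2 of shPum2. Both shPum2 values were below both shControl values, but the shPum2 replicates differed 2.3-fold from each other. In somatic RNA it averaged 15.7 CPM with shControl and 13.3 CPM with shPum2. The ribosomal protein RNAs Rpl41, Rps2, Rps29 and Rpl38 and the cytochrome c oxidase subunit Cox6a1 made up the rest. Rpl41 was at 8959 and 6772 CPM in shControl replicates 1 and 2 and 4635 and 8938 CPM in those of shPum2, and Cox6a1 was at 6071 and 4786 CPM in the shControl libraries and 3925 and 7123 CPM in the shPum2 libraries. Replicate 1 of shPum2 was the lowest library for Rpl41, Rps29 and Rpl38 in these CPM, by total counts and in TPM, and for Rps2 and Cox6a1 in these CPM only.

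Among RNAs counted at least 10 times in every axonal library, 16 were singled out by the smallest unadjusted p with non-overlapping groups, 8 in each direction, so their separation is a description and not a finding. Jup, the junction protein plakoglobin, was at 101 and 83 CPM under shControl, against 260.0 and 352 CPM under shPum2. Its log2 difference was 1.73 (SE 0.67, unadjusted p = 0.0304, edgeR). Ppp1r2, an inhibitor of protein phosphatase 1, was at 116 and 94.2 CPM in shControl replicates 1 and 2 and 393 and 285 CPM in those of shPum2, with a log2 difference of 1.69 (SE 0.66). The replicates of each hairpin were at most 1.37-fold apart in these RNAs, and the shPum2 means were 3.33-fold and 3.22-fold those of shControl.

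The other 6 of the higher RNAs were scarce in the shControl libraries. Tars2, a mitochondrial threonyl-tRNA synthetase, was at 2.19 and 3.57 CPM in the shControl libraries and 48.1 and 86.7 CPM in the shPum2 libraries. Col18a1, the collagen that contains endostatin, was at 0.911 and 1.82 CPM under shControl, against 55.9 and 38.6 CPM under shPum2. The kinase Stk10 was at 1.0 and 1.75 CPM in shControl replicates 1 and 2 and 58.4 and 29.7 CPM in those of shPum2. All 3 had fewer than 50 counts in each shControl library and more than 400 in each shPum2 library. Agtpbp1, an enzyme that removes glutamates from tubulin, was at 1.37 and 1.9 CPM in the shControl libraries and 41.3 and 46.3 CPM in the shPum2 libraries, whereas its somatic mean was 419 CPM with shControl and 411 CPM with shPum2. The zinc finger protein RNA Zcchc17 was at 4.37 and 2.28 CPM under shControl, against 36.5 and 80.2 CPM under shPum2. Smarcd3, a subunit of SWI/SNF chromatin remodellers, was at 1.37 and 0.76 CPM in shControl replicates 1 and 2 and 6.88 and 114 CPM in those of shPum2, and a single shPum2 library carried nearly all of its counts.

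On the lower side, Akr1b1, the aldose reductase that turns glucose into sorbitol, was at 1368 and 277 CPM in the shControl libraries and 129.9 and 115 CPM in the shPum2 libraries. Its log2 difference was -2.75 (SE 0.83, unadjusted p = 0.0101, edgeR), the smallest p of the 16. With replicate 1 of shControl left out it was -1.14, and with replicate 2 left out -3.49. The shPum2 libraries lay close together, and the shControl libraries differed 4.94-fold. Its somatic mean was 99.9 CPM with shControl and 114 CPM with shPum2. Bcl2a1, a survival protein of the Bcl-2 family known from blood cells, was at 86.6 and 116 CPM under shControl, against 14.6 and 15.6 CPM under shPum2, and its somatic means were 1.12 and 2.09 CPM. Its axonal values were thus all above both somatic means, and the part of blood cells in them was not tested. Tmem185a was at 28.4 and 36.8 CPM in shControl replicates 1 and 2 and 0.764 and 1.08 CPM in those of shPum2.

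Several of the lower RNAs were highest in replicate 2 of shControl. Tnfrsf21, the death receptor DR6 known from axon degeneration, was at 9.38 and 109 CPM in the shControl libraries and 2.71 and 3.23 CPM in the shPum2 libraries. Pls3, an actin-bundling plastin, was at 46.8 and 106 CPM under shControl, against 13.8 and 5.02 CPM under shPum2. Nsun2, a methyltransferase of RNA cytosines, was at 46.3 and 195 CPM in shControl replicates 1 and 2 and 15.8 and 31.3 CPM in those of shPum2. In Tnfrsf21, Pls3, Nsun2, Itprid2 and Stau1, replicate 2 of shControl was the highest library, from 2.26 times replicate 1 for Pls3 to 25.1 times for Itprid2. Without that library the log2 difference was -1.66 for Tnfrsf21 and -1.29 for Itprid2.

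**Figure D4:**
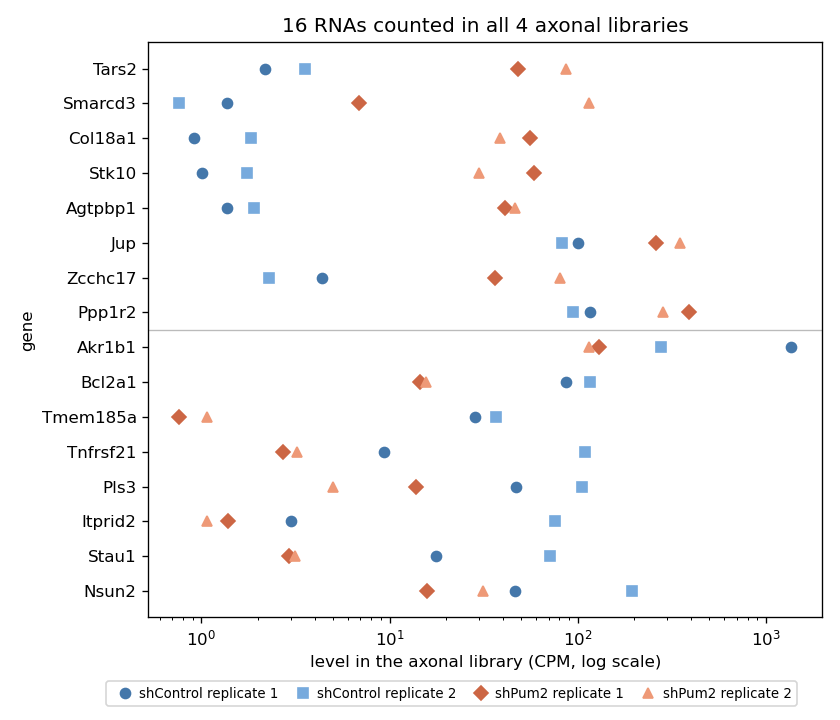
Level of 16 RNAs in each of the 4 axonal libraries, in CPM on a log axis, with a row per gene and a symbol per library; the line divides the 8 RNAs with higher values in shPum2 from the 8 with lower values. The genes were selected for groups that do not overlap, and the distance between same-hairpin symbols shows the replicate spread, small for Jup and Ppp1r2 and large for Smarcd3 and Itprid2.

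Some RNAs were absent from both libraries of a hairpin and present in both of the other. There were 39 genes (0.224% of all) with 0 counts in both shControl libraries and at least 10 in both shPum2 libraries, and 29 (0.167%) of the reverse kind. With a minimum of 3 counts the numbers were 58 and 49, and with 50 counts 13 and 10. The 2 directions were thus of like size at each minimum. The small GTPase Rhov had 0 counts under shControl and 397 and 228 under shPum2. That was at least 177-fold higher by a floor of 3 counts over the group. Such bounds, here and below, hold for the counted level and not for the RNA itself. Genes with up to 741 counts in an axonal library were at 0 in the others, the same hairpin included. Myot, the muscle protein myotilin, had 132 and 235 counts with shPum2, and Skap1, a T-cell adaptor, had 89 and 186. The nucleotide sugar transporter Slc35d2 and the RNase P subunit Rpp40 were at least 108-fold and 81.4-fold higher, and Siah2, a ubiquitin ligase, at least 67.8-fold. In somatic RNA Myot and Skap1 were below 1 CPM with either hairpin, so these RNAs were rare there.

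In the reverse direction, Tec, a kinase of blood cells, had 132 and 1009 counts under shControl and 0 under shPum2, at least 447-fold lower. The general transcription factor Gtf2b had 86 and 1102 counts with shControl, and the adaptor Sh2b2 had 74 and 769. The cell cycle inhibitor Cdkn2b had 234 and 123, the calcium-binding S100a5 had 166 and 100, and the chaperone Dnajc22 had 92 and 288. Gtf2b, Sh2b2 and Tec were 10.7, 8.68 and 6.38 times higher in replicate 2 of shControl than in replicate 1 by CPM, and Cdkn2b and S100a5 were higher in replicate 1. Il2rg, a receptor chain shared by several interleukins, had 201 and 1649 counts under shControl and 0 and 1 under shPum2. Its unadjusted p of 0.0017 in edgeR was the smallest of all tested genes. Tec and Il2rg both belong to the macrophage and blood list, whose summed level with shPum2 was the highest of the 4 in replicate 1 and the lowest in replicate 2.

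The gene lists were read by the roles of their members, and in each of them 0 members passed the threshold. Of 29 lists with at least 5 tested members, 6 kept a median of 1 sign under each scaling, in DESeq2 and without each library. They were the RNA-binding proteins of granules, axonally translated mRNAs, microtubules, motors, glia and fibroblasts, and the medians of the other 23 changed sign at least once. With some library left out the 6 medians came as near to 0 as -0.07, 0.07, 0.05, 0.01, -0.26 and -0.06, in that order. These signs are against 0, and the median of all genes itself moved by -0.51 to 0.36 as libraries were left out. RNAs described elsewhere as Pumilio targets had 14 of 18 members tested, with 5 log2 differences above 0 and 9 below and a median of -0.30, against -0.05 over all genes. The median ran from -0.17 to 0.27 as libraries were left out in turn, so it had no stable sign. Groups did not overlap for 2 members (14.3%) on the higher side and 1 (7.14%) on the lower, against 13.4% and 13.7% of all genes. The GTPase Nras was at 16.5 and 2.97 CPM in the shControl libraries and 54.1 and 56.2 CPM in the shPum2 libraries, and the sodium channel Scn8a, named after its values were seen, was at 5.92 and 0.304 CPM under shControl, against 9.03 and 6.45 CPM under shPum2. Cdk6, a cell cycle kinase, was at 5.65 and 1.44 CPM in shControl replicates 1 and 2 and 0.764 and 0.645 CPM in those of shPum2. The cap-binding protein Eif4e, a textbook Pumilio target, was at 51.9 and 105 CPM in the shControl libraries and 78.7 and 146 CPM in the shPum2 libraries, with overlapping groups, a log2 difference of 0.51 and an interval from -1.47 to 2.49. Replicate 1 was below replicate 2 for each hairpin of Eif4e.

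Pumilio proteins act through deadenylation, and 30 of 35 genes of that machinery were tested. Of these, 13 were above 0 and 17 below, with a median of -0.16. Cnot6l, a deadenylase of the CCR4-NOT complex, was at 9.38 and 8.97 CPM under shControl, against 0.139 and 0 CPM under shPum2. Cnot9, another subunit of that complex, was at 0.273 and 0.304 CPM in shControl replicates 1 and 2 and 25.7 and 4.37 CPM in those of shPum2, and the decapping enzyme Dcp2 was at 0 and 0.076 CPM in the shControl libraries and 1.11 and 3.44 CPM in the shPum2 libraries. The subunits thus stood apart in opposite directions, and each rested on a hairpin with fewer than 5 counts in every library. The abundant members Lsm7 and Lsm5, of the ring that binds deadenylated RNA, overlapped, with log2 differences of -0.18 and 0.01.

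The RNA exosome, which degrades RNA from the 3′ end, showed the same split. Of 10 members tested, 3 (30%) had non-overlapping groups in each direction, against 13.4% higher and 13.7% lower over all genes. The median was -0.24, unchanged with Exosc7 at its lower bound. The helicase cofactor Mtrex was at 25.8 and 97.3 CPM under shControl, against 0.486 and 0.358 CPM under shPum2 (unadjusted p = 0.00471, edgeR). Dis3, a catalytic subunit, was at 4.01 and 45.9 CPM in shControl replicates 1 and 2 and 0.208 and 0 CPM in those of shPum2. Exosc7, of the core ring, had 0 counts under shControl and 161 and 30 under shPum2, at least 54.2-fold higher. The most abundant member, Exosc5, overlapped between hairpins.

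RNA-binding proteins of transport granules had more negative than positive differences. Of 38 tested, 11 were above 0 and 27 below, and the median of -0.63 stayed between -1.11 and -0.07 as single libraries were left out and was -0.43 with total counts. Groups did not overlap for 6 members on the lower and 2 on the higher side, or 15.8% and 5.26% of those tested, against 13.7% and 13.4% of all genes. Stau1, the double-stranded RNA-binding protein staufen, was at 17.7 and 71.6 CPM in the shControl libraries and 2.92 and 3.15 CPM in the shPum2 libraries. The related Stau2, one of the most abundant members, was at 21718 and 7737 CPM under shControl, against 11425 and 14131 CPM under shPum2, with overlapping groups. The RNA-binding protein Hnrnpk was at 213 and 456 CPM in shControl replicates 1 and 2 and 171 and 72.3 CPM in those of shPum2. The stress granule protein G3bp1 was at 43.1 and 196 CPM in the shControl libraries and 22.7 and 40.6 CPM in the shPum2 libraries. In Stau1, Hnrnpk and G3bp1 alike, replicate 2 of shControl was above replicate 1, by 2.14-fold to 4.54-fold, and the shPum2 values were below both, for Hnrnpk not with total counts. Ybx1, a general mRNA-packaging protein, was at 16308 and 12188 CPM under shControl, against 10244 and 15615 CPM under shPum2, and its log2 difference was -0.14 (SE 0.67). Fmr1, the fragile X protein, also named after its values were seen, was 1 of the 2 higher members, at 6.56 and 0.836 CPM in shControl replicates 1 and 2 and 14.4 and 13.8 CPM in those of shPum2.

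Genes of the cytosolic ribosome were measured in every library. All 79 cytosolic ribosomal protein genes had at least 10 counts in every axonal library, with a median SE of 0.64. Their differences ran from -0.48 to 0.61, with 26 above 0, 53 below and a median of -0.06. A single member (1.27%) did not overlap, on the lower side, against 13.7% of all genes. The list's summed level was 123299 and 119640 CPM with shControl and 73574 and 148723 CPM with shPum2. The shPum2 replicates lay on either side of the shControl pair, and the list median ran from -0.80 to 0.46 when shPum2 replicate 2 or replicate 1 was left out. Many of these genes have near-identical pseudogenes, so single values are uncertain.

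Translation factors had 45 members tested, 29 above 0 and 16 below, with a median of 0.16. Eif2s3, a subunit of the initiator tRNA carrier, was at 24.3 and 3.8 CPM in the shControl libraries and 67 and 60.5 CPM in the shPum2 libraries. Eif3e, of the scaffold factor eIF3, was at 51.1 and 193 CPM under shControl, against 48.5 and 46.8 CPM under shPum2, again with the high value in replicate 2 of shControl. Aminoacyl-tRNA synthetases, which charge tRNAs, had 25 tested, 10 above 0 and 15 below, with a median of -0.21. On the higher side 5 of them (20%) had non-overlapping groups, against 13.4% of all genes, and on the lower side 0 (0%), against 13.7%. Among those 5 were the mitochondrial enzymes Tars2, given above, and Vars2, at 0.455 and 0.38 CPM in shControl replicates 1 and 2 and 18.3 and 31.6 CPM in those of shPum2. The cytosolic Farsb was at 10.7 and 13.7 CPM in the shControl libraries and 44.2 and 52.7 CPM in the shPum2 libraries. The abundant Sars1 and Kars1 overlapped, with log2 differences of 0.07 and -0.11.

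RNAs for mitochondria had median differences near 0. Respiratory chain subunits had 71 members tested, 46 above 0 and 25 below, with a median of 0.05 and a median SE of 0.63. Atp5f1c, of the ATP synthase stalk, was at 178 and 177 CPM under shControl, against 251 and 416 CPM under shPum2, and Uqcrc2, a core protein of complex III, was at 42.7 and 23.7 CPM in shControl replicates 1 and 2 and 78.5 and 88.4 CPM in those of shPum2. The lower shPum2 value exceeded the higher shControl value 1.41-fold and 1.84-fold. The complex I subunit Ndufs1 was at 14.7 and 0.684 CPM in the shControl libraries and 59.6 and 29.5 CPM in the shPum2 libraries. Cox4i1, known to be translated in axons, overlapped with an interval from -1.37 to 1.26. Mitochondrial ribosomal proteins had 66 tested, with 31 above 0, 35 below and a median of -0.02.

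RNAs described earlier as translated in axons had 24 of 38 tested members above 0 and a median of 0.25, which stayed between 0.07 and 0.36 as libraries were left out. On the higher side 7 members (18.4%) did not overlap, against 13.4% of all genes, and on the lower side 2 (5.26%), against 13.7%. Actb, whose mRNA is the classic locally translated RNA of growth cones, was at 3344 and 3226 CPM under shControl, against 4634 and 4922 CPM under shPum2. The replicates were 1.04-fold apart with shControl and 1.06-fold with shPum2, and the log2 difference was 0.54 with an interval from -0.78 to 1.86. Apc, a microtubule-end protein that also binds RNAs, was at 322 and 108 CPM in shControl replicates 1 and 2 and 633 and 669 CPM in those of shPum2, with a log2 difference of 1.60 (SE 0.70, unadjusted p = 0.0495, edgeR). With replicate 1 of shControl left out it was 2.63, and with replicate 2 left out 1.01. Rangap1, the GTPase activator of the nuclear transport system, was at 32.3 and 7.38 CPM in the shControl libraries and 55.8 and 61.1 CPM in the shPum2 libraries, and the peroxidase Prdx6 was at 65.3 and 0.76 CPM under shControl, against 75.9 and 145 CPM under shPum2, with 10 counts in its lowest library.

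Microtubule genes had 26 of 38 tested members above 0, with a median of 0.19 that stayed between 0.05 and 0.73. There were 7 non-overlapping members on the higher side (18.4%) and 1 on the lower (2.63%), against 13.4% and 13.7% of all genes. Tuba1a, the main alpha tubulin of growing neurons, was at 10096 and 9911 CPM in shControl replicates 1 and 2 and 10617 and 17545 CPM in those of shPum2. Ttl, which puts the terminal tyrosine back on tubulin, was at 0.547 and 0.684 CPM in the shControl libraries and 11.2 and 11 CPM in the shPum2 libraries, and Agtpbp1, given above, edits the same tail. The plus-end protein Clasp2 was at 8.84 and 9.73 CPM under shControl, against 77.4 and 18.2 CPM under shPum2. Motors had 34 tested with a median of 0.15, and the axonal kinesin Kif5c was at 712 and 364 CPM in shControl replicates 1 and 2 and 633 and 1088 CPM in those of shPum2. Nde1, a dynein regulator, was at 2.73 and 45.4 CPM in the shControl libraries and 0.0694 and 1.51 CPM in the shPum2 libraries. Actin and growth cone genes had a median of 0.09 over 40 members.

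Receptors and adhesion molecules were poorly captured: 26 of 48 genes were tested, and 22.9% of the values in the 4 libraries were 0. Their median was -0.15, from -1.29 to 1.64 as libraries were left out. L1cam, which lets growing axons adhere to each other, was at 4.65 and 4.87 CPM under shControl, against 53 and 52.9 CPM under shPum2, from 51, 64, 763 and 738 counts. The replicates were 1.05-fold apart with shControl and near equal with shPum2, and the hairpins were apart by a log2 difference of 3.47 (SE 1.53, interval -0.04 to 6.98, unadjusted p = 0.052, edgeR). Its adjusted p was 0.9998 in edgeR with Benjamini-Hochberg adjustment and 0.160 in the authors' deposited table. Its somatic level was 935 CPM with shControl and 935 CPM with shPum2. Epha2, an ephrin receptor, was at 0.273 and 0.228 CPM in shControl replicates 1 and 2 and 23.8 and 105 CPM in those of shPum2, with 3 counts in each shControl library. Sema3c, a guidance ligand, was high in a single shPum2 library, at 1.0 and 1.06 CPM in the shControl libraries and 63.8 and 0.43 CPM in the shPum2 libraries.

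Growth factor receptors also had many empty values, with 32.8% at 0 and 9 of 16 genes tested. The neurotrophin receptor Ngfr was at 14 and 265 CPM under shControl, against 207 and 20.3 CPM under shPum2, and Ret, the GDNF family receptor, was at 2.0 and 10.7 CPM in shControl replicates 1 and 2 and 104 and 1.29 CPM in those of shPum2. Their somatic means with shControl were 1598 and 905 CPM. The highest and lowest library of the 4 differed 18.9-fold for Ngfr and 80.3-fold for Ret without separating the hairpins. Voltage-gated channels had 25 of 49 genes tested and a median of 0.34, from -0.90 to 0.93 as libraries were left out. On the higher side 7 tested members (28%) did not overlap, against 13.4% of all genes, and on the lower side 2 (8%), against 13.7%. The sodium channel subunit Scn3b was at 2.82 and 0.836 CPM in the shControl libraries and 35.3 and 13.6 CPM in the shPum2 libraries, and the calcium channel subunit Cacnb3 was at 134 and 212 CPM under shControl, against 261 and 238 CPM under shPum2.

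Synaptic vesicle genes had 26 of 41 tested members above 0 and a median of 0.32. Stx1a, a fusion protein of the plasma membrane, was at 19.3 and 1.67 CPM in shControl replicates 1 and 2 and 89.7 and 114 CPM in those of shPum2, and Dnm1, the dynamin of vesicle recycling, was at 17.5 and 39.9 CPM in the shControl libraries and 0.764 and 0.502 CPM in the shPum2 libraries. These groups did not overlap and pointed in opposite directions. Bsn, of the active zone, had 1537 counts in replicate 2 of shControl and at most 16 in the other libraries. Tethering and sorting complexes had 10 of 44 members (22.7%) non-overlapping on the higher side and 5 (11.4%) on the lower. The shares over all genes were 13.4% and 13.7%, and the list median was 0.09. Trappc8, of the TRAPP tether, was at 30.5 and 24.6 CPM under shControl, against 0.139 and 0.215 CPM under shPum2, and Vps39, of the HOPS tether, was at 10.9 and 36.1 CPM in shControl replicates 1 and 2 and 0.417 and 0.215 CPM in those of shPum2. Vps26b, a retromer subunit, was at 0.364 and 1.14 CPM in the shControl libraries and 34.7 and 27 CPM in the shPum2 libraries. Somatic levels of these 3 RNAs were 92.4, 76.9 and 219 CPM with shControl and 95.3, 73.1 and 207 CPM with shPum2.

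The proton pump of lysosomes and vesicles had 19 members tested and a median of 0.12. Atp6v0d2, an isoform known from macrophages and osteoclasts, was at 0.0911 and 0.152 CPM under shControl, against 82.3 and 16.6 CPM under shPum2, and below 1 CPM in somatic RNA with either hairpin. The summed macrophage markers were highest in replicate 1 of shPum2 and lowest in replicate 2, and the part of macrophages in the Atp6v0d2 values was not tested. The widely expressed Atp6v1f overlapped, at 897 and 815 CPM in shControl replicates 1 and 2 and 573 and 1198 CPM in those of shPum2. Proteasome subunits had 18 of 38 above 0 and a median of -0.06. Stress and unfolded protein genes had 14 of 33 above 0 and a median of -0.16. The chaperone Hspa5 was at 1277 and 523 CPM in the shControl libraries and 144 and 2062 CPM in the shPum2 libraries, so the shPum2 replicates held both its lowest and its highest value. Immediate early genes had 3 of 14 above 0 and a median of -1.26, but -2.07 to 0.62 as libraries were left out, with the highest median without replicate 2 of shControl.

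Cholesterol synthesis had a median of 0.46, with 20 of 27 tested members above 0. On the higher side 8 members (29.6%) did not overlap, against 13.4% of all genes, and 2 (7.41%) on the lower side, against 13.7%. Sqle, which oxidises squalene, was at 16.3 and 3.57 CPM under shControl, against 134 and 21.2 CPM under shPum2, and Dhcr7, the last enzyme of a branch, was at 18.6 and 1.44 CPM in shControl replicates 1 and 2 and 48.8 and 58.2 CPM in those of shPum2. Acat2, at the entry to the pathway, had closer replicates, at 292 and 313 CPM in the shControl libraries and 413 and 459 CPM in the shPum2 libraries. The 2 non-overlapping members on the lower side, Idi1 and Msmo1, named after their values were seen, belong to the same route and overlapped with scaling by total counts. Idi1 had a log2 difference of -0.95, from -1.28 to -0.48 as libraries were left out. Msmo1 had one of -1.49, which was -6.67 without replicate 1 of shPum2 and -0.54 without replicate 2 of it. The list median was -0.05 without replicate 1 of shPum2, where the median of all genes fell by 0.51 as well.

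Genes of iron storage and antioxidant defence had 13 of 26 above 0 and a median of -0.10. The subunits of the enzyme that starts glutathione synthesis had groups apart in opposite directions. Its catalytic subunit Gclc was at 0.638 and 2.05 CPM under shControl, against 58.9 and 44.6 CPM under shPum2, and its modifier subunit Gclm was at 7.65 and 40.6 CPM in shControl replicates 1 and 2 and 0.833 and 1.0 CPM in those of shPum2. Txnrd1, a thioredoxin reductase, was at 3.37 and 15.7 CPM in the shControl libraries and 79.7 and 103 CPM in the shPum2 libraries. Sensory neuron markers had 14 of 22 tested members above 0 and a median of 0.30, from -0.61 to 0.48 as libraries were left out. The neurofilament Nefl was at 874 and 1560.4 CPM under shControl, against 1843 and 2110.3 CPM under shPum2, with non-overlapping groups and an interval from -0.65 to 2.05, and Nefm was at 17389.5 and 10587 CPM in shControl replicates 1 and 2 and 19168 and 16478 CPM in those of shPum2, with overlap.

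Markers of other cells mostly had negative differences: 9 of 10 tested glial genes, 11 of 15 fibroblast genes and 13 of 20 macrophage and blood genes were below 0. Their medians were -0.83, -0.46 and -0.68. The glial median stayed between -2.11 and -0.26 and the fibroblast median between -1.51 and -0.06 as libraries were left out, whereas the macrophage median ran from -3.40 to 1.18. Apoe was at 4797 and 65.2 CPM in the shControl libraries and 2629 and 18.8 CPM in the shPum2 libraries, high in replicate 1 of each hairpin. The matrix gene Postn was at 104 and 8.29 CPM under shControl, against 6.32 and 0.358 CPM under shPum2, and the lysozyme Lyz2, the most abundant macrophage RNA, was at 869 and 2254 CPM in shControl replicates 1 and 2 and 1666 and 199 CPM in those of shPum2. Groups overlapped for Apoe and Lyz2. Cell cycle genes had 11 of 15 below 0 and a median of -0.50.

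**Figure D5:**
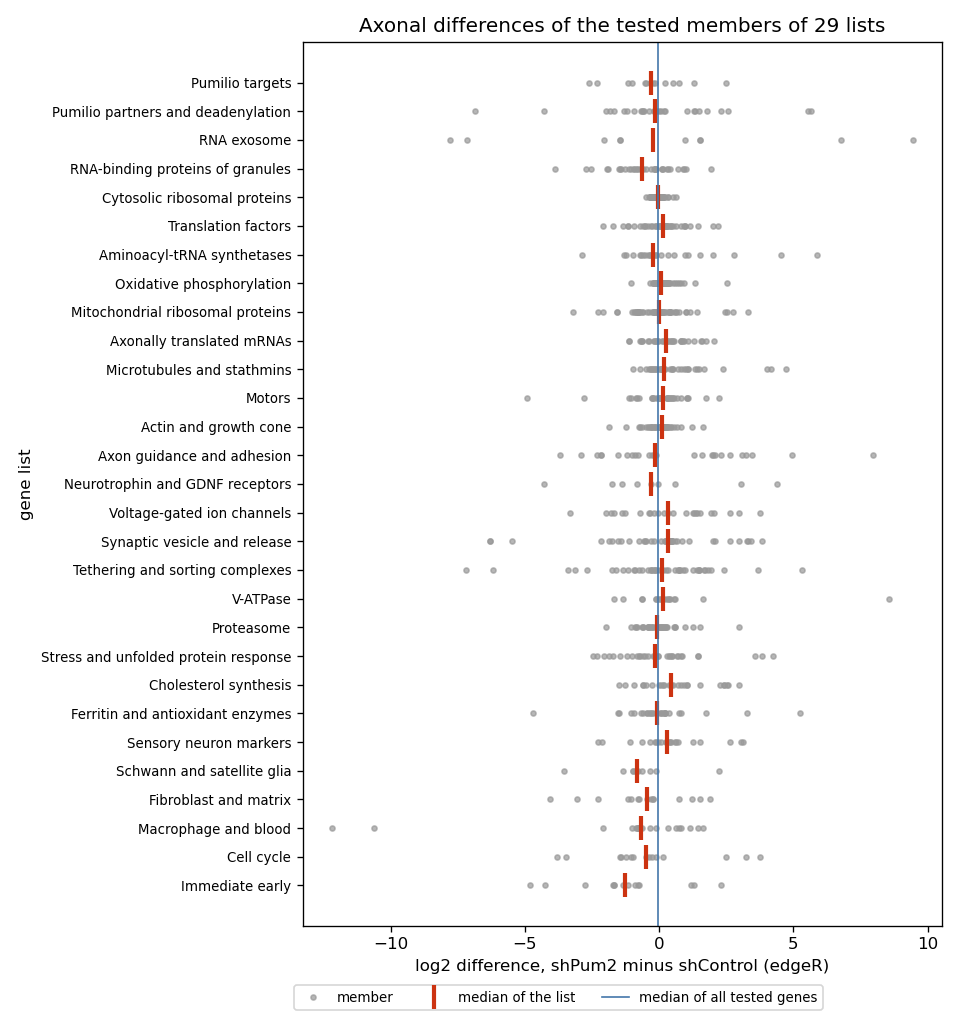
Log2 difference of shPum2 minus shControl (x axis, edgeR) for each tested member of 29 gene lists (rows; the endothelial list, with 3 tested members, is left out), with a bar at each list's median and a line at the median of all tested genes, -0.05. Ribosomal protein genes form a narrow band from -0.48 to 0.61, whereas exosome, tethering and macrophage genes spread over more than 10 log2 units, and the list medians lie between -1.26 and 0.46.

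The authors' deposited table of the same comparison lists 357 genes with an adjusted p below 0.05, 171 with positive and 186 with negative log2 fold changes. Of these, 329 were found by symbol among the genes summed here. Of the 329, 181 had 0 counts in at least 1 axonal library. Over all 17379 genes, 9415 had 0 counts in at least 1 axonal library. These include the 5298 at 0 in all 4, which no test can call, so the 9415 are no like base for the 181. At the other end, 11 of the 329 had at least 10 counts in all 4 libraries, against 4668 (26.9%) of all genes. Of the 329, edgeR tested 214, and 176 of these had an unadjusted p below 0.05 in edgeR. Both tests used the same 4 libraries, so this is no separate check of the authors' calls. The 11 were Tars2, Smarcd3, Mapk6, Col18a1, Agtpbp1, Stk10, Acss2, Pphln1, Tmem185a, Lrrc8d and Myh9, chosen after their values were seen. The kinase Mapk6 was at 1.28 and 2.89 CPM in the shControl libraries and 48.5 and 45.5 CPM in the shPum2 libraries. Acss2, which makes acetyl-CoA from acetate, was at 1.28 and 1.67 CPM under shControl, against 46.7 and 29.4 CPM under shPum2. The values of 10 of the 11 did not overlap between hairpins, in the same libraries that gave the calls. The exception was the non-muscle myosin Myh9, whose row in the authors' deposited table, with a mean signal of 55.3 and a log2 fold change of 6.93, does not describe the counts summed here under that symbol, with a mean of 182 and a log2 difference of -0.50. It was the 1 gene of the 329 whose mean signals differed by over 1.5 times between that table and the sums. In the authors' deposited table L1cam has a log2 fold change of 3.18 and Akr1b1 of -2.53, with adjusted p-values of 0.160 and 0.333.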

How the data were processed

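Deposited files give, per library, the authors' estimated counts for 18321 RefSeq transcripts and TPM, a share scaled by transcript length, per the file headers. The submitters' processing notes name kallisto, DESeq2 and the build Rnor_6.0, without versions. The authors' deposited comparison table of the axonal libraries gives per gene, as its header says, the mean normalised signal, the log2 fold change with its SE, a test score, and raw and adjusted p-values.

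Of the transcripts, 17367 matched a symbol in RefSeq's gene table for GRCr8, which served for names only. Sums over the transcripts of a symbol, with the 954 unmatched transcripts kept under their own accessions, gave 17379 genes, rounded to whole numbers. The axonal libraries alone were fitted in edgeR 4.0.16 (R 4.3.3) by its quasi-likelihood test, with TMM scaling, its expression filter and Benjamini-Hochberg adjustment at 0.05. Intervals cover 95% and floors are 3 counts over a group.

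The members and gene lists were chosen with earlier results of these data known. The rule for named genes took Pum2, L1cam, the 10 highest by mean TPM, and 8 per direction with the smallest unadjusted p among those with at least 10 counts in each axonal library and no overlap. It also took 6 per direction at 0 in both libraries of a hairpin and, per list, up to 3 with the smallest p and 2 with the highest TPM. Alternatives were other scalings, no filter, a minimum of 50 CPM, DESeq2 1.42.0, limma 3.58.1 voom, a replicate block, each library left out and other count minimums. The test was checked on simulated counts. Some genes the rule named are not reported here. The somatic comparison and its deposited table were not used here.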

Additional observations from a re-analysis of the deposited data

How the results depend on the processing

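The count of 0 genes past the threshold held with DESeq2 size factors in edgeR, scaling by total counts, limma voom, and a minimum mean of 50 CPM, which left 1958 genes. Without the expression filter edgeR called 6 genes, 2 higher and 4 lower. DESeq2 called 336, 159 higher and 177 lower, and, in an alternative added after seeing the data, 159 on the genes edgeR tested, 83 higher and 76 lower. Leaving out each library gave 0 to 31 genes, with 0 to 7 higher and 0 to 29 lower, and a lone library was then assumed to vary like the other pair. Same-numbered libraries deviated together with r = 0.13, and as 2 pairs cannot establish a pairing, the fit with the replicate number as a block is given here only: it called 0 genes and 255 had an unadjusted p below 0.05. Under that block the log2 difference changed sign to -0.03 for Cox6a1, -0.13 for Lsm5, 0.08 for Ngfr, -0.05 for Atp6v1f and -0.58 for Hspa5. The median of the cholesterol synthesis list was 0.02 under it, and that of voltage-gated channels 0.74. With total counts the log2 difference changed sign to 0.06 for Tmsb4x, 0.02 for Cox4i1 and 0.02 for Ngfr, and for Tmsb4x also to 0.03 with DESeq2 size factors, 0.05 in DESeq2 and 0.03 on the genes edgeR tested. As libraries were left out, the log2 difference crossed 0, from -0.75 to 3.42 for Pum2, -0.83 to 0.28 for Tmsb10, -0.56 to 0.06 for Ftl1, -0.57 to 0.41 for Tmsb4x, -0.79 to 0.21 for Rpl41, -0.64 to 0.07 for Rps2, -0.89 to 0.18 for Rps29, -0.94 to 0.38 for Rpl38, -0.50 to 0.41 for Cox6a1, -0.03 to 1.12 for Eif4e, -0.97 to 0.34 for Lsm7, -0.82 to 0.54 for Lsm5, -0.62 to 2.37 for Exosc5, -0.51 to 0.15 for Ybx1 and -0.76 to 0.77 for Stau2. It likewise ran from -0.38 to 0.83 for Sars1, -0.51 to 0.21 for Kars1, -0.49 to 0.28 for Cox4i1, -1.23 to 5.90 for Sema3c, -2.28 to 4.65 for Ret, -2.77 to 2.97 for Ngfr, -7.30 to 0.65 for Bsn, -0.61 to 0.51 for Atp6v1f, -2.67 to 1.22 for Hspa5, -6.99 to 4.31 for Apoe, -2.95 to 0.06 for Lyz2, -0.09 to 0.21 for Tubb5, -0.09 to 0.09 for Vdac3 and -1.27 to 1.39 for Myh9. The cause was not tested.

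Each library held at least 11641980 counts, and the biological coefficient of variation between replicates was 125% in edgeR. The SE of a log2 difference had a median of 2.07. The absence of calls thus does not show that axonal RNAs were alike between hairpins.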
